A study of Danio rerio with 24 samples.

Results

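The 8 genes described here are fkbp5, nr3c1, nr3c2, tsc22d3, pck1, ddit4, sgk1 and hsd11b2, which are grouped here under glucocorticoid signalling. They were chosen by gene name, with earlier results of these data known, and each was found once among the 18987 genes of the deposited table. The series holds 24 RNA samples of adult wild-type zebrafish heart ventricle, each a pool of 3 or 4 ventricles. Of these, 8 were from cryoinjured fish that were exercised, 8 from cryoinjured fish that were not exercised and 8 from non-exercised, sham-operated fish, and each of these sets was taken as 4 samples at 7 and 4 at 14 days post injury (dpi). Cryoinjury is a freezing lesion of the ventricle, and exercise was swimming in a tunnel that began after the injury, with resting fish as the control. Atrium and bulbus arteriosus were removed before RNA extraction, and no cell type was sorted.

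The study asked how exercise alters expression in the regenerating ventricle at these time points. Apart from the authors' own comparisons, which are not used here, the deposited table gives 1 value for each gene, the authors' mean of normalized counts over samples. It has 0 columns of values per sample. No value per group, spread between replicates, depth per sample or test of exercise can therefore be given for these genes, and nothing below says whether any of them rose or fell. Which samples entered the mean is not given in the sources used here. The sequencing methods of the paper describe only cryoinjured fish, exercised or not, so the sham samples may not be part of it.

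Cortisol, the main glucocorticoid of fish, enters cells and binds the glucocorticoid receptor, which is held ready for its ligand by a complex of heat shock proteins and co-chaperones and then acts in the nucleus as a transcription factor. The same steroid can bind the mineralocorticoid receptor, and enzymes within the cell can inactivate it. In mammals the co-chaperone FKBP5 lowers the affinity of the receptor for its ligand and is itself induced by the receptor, which closes a feedback loop. Targets of the receptor include genes of glucose metabolism, ion transport and growth control.

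A count rises with the length of a transcript as well as with its abundance, and no transcript lengths were available. The values below therefore describe how many reads supported each gene. They do not order the genes by the amount of their transcripts. Over all listed genes, the median of the authors' mean counts was 79.6, with quartiles of 17.3 and 266.1, and 6 of the 8 genes lay above the upper quartile.

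Both corticosteroid receptors were listed. For nr3c1 (ENSDARG00000025032), the glucocorticoid receptor, the authors' mean count was 867, and 91.5% of the other listed genes had a lower mean count. For nr3c2 (ENSDARG00000102082), the mineralocorticoid receptor, the authors' mean count was 77.9, and 49.6% of genes had a lower one. The read support of the glucocorticoid receptor was thus in the upper quartile of the table, and that of the mineralocorticoid receptor was next to its median. Of the related steroid receptors, the androgen receptor ar had a mean count of 462, and the progesterone receptor pgr was not matched by name.

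The co-chaperone gene fkbp5 (ENSDARG00000028396) had the highest read support of the 8. Its mean count in the authors' table was 13898, which placed it at rank 82 from the top of all listed genes, with 99.6% of genes below it. It alone held 51.6% of the summed mean counts of the 8 genes. Among 16 matched genes of the FK506-binding protein family, fkbp5 held most of the summed mean counts, which came to 18530. The next of that family was fkbp1aa, with a mean count of 1421, and fkbp4, which encodes another co-chaperone of steroid receptors, had 556. The remaining 13 lay between 16.6 and 902.

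The hsd11b2 gene (ENSDARG00000001975) encodes the hydroxysteroid dehydrogenase that converts cortisol to inactive cortisone. Its mean count in the authors' table was 7592, at rank 180 from the top, with 99.1% of genes below it. The gene hsd11b1la, related to it by name, had a mean count of 95.5. Of the reads assigned to both genes, 98.8% belonged to hsd11b2. Whether the product of hsd11b1la acts on cortisol or cortisone was not tested. This share therefore does not measure a balance between inactivation and regeneration of cortisol.

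Among the genes known as targets of the receptor, tsc22d3 (ENSDARG00000075666), which encodes the glucocorticoid-induced leucine zipper protein, had a mean count of 2701, with 97.1% of genes below it. The mean count of ddit4 (ENSDARG00000037618), an inhibitor of mTORC1 signalling, was 929.9, with 92.1% of genes below it. The kinase gene sgk1 (ENSDARG00000025522), a regulator of ion transport, had a mean count of 858, with 91.5% of genes below it. The read support of ddit4, sgk1 and nr3c1 was thus of a similar size. The target with the lowest read support was pck1 (ENSDARG00000013522), which encodes the cytosolic phosphoenolpyruvate carboxykinase of gluconeogenesis. Its mean count was 13.1, with 21.3% of genes below it, and it lay below the lower quartile of the table.

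**Figure D1:**
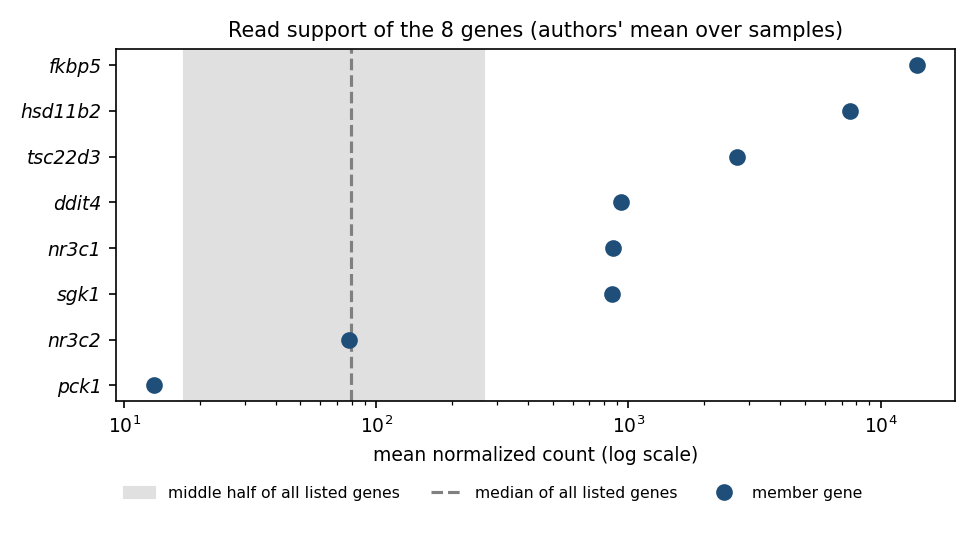
Authors' mean normalized count of each of the 8 genes on a log axis, 1 point per gene with no error because the mean has no deposited spread; the grey band spans the quartiles of all 18987 listed genes and the dashed line is their median. The points run from 13.1 for pck1 to 13898 for fkbp5, with nr3c2 next to the median at 77.9.

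The read support also sets how precisely a gene can be measured. In a library of average depth, counting error alone would give a coefficient of variation of 0.848% for fkbp5, 1.15% for hsd11b2, 1.92% for tsc22d3 and between 3.28% and 3.41% for ddit4, nr3c1 and sgk1. For nr3c2 it would be 11.3%. For pck1 it would be 27.6%, so that a change in pck1 between single libraries would have to be large to exceed counting error. These figures cover counting error only and leave out the variation between pools of ventricles, which is unknown here.

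The related genes differed in how the reads were shared. Within the tsc22d family, tsc22d3 took 75.8% of the summed mean counts, and the other three matched entries, of which a pair is named tsc22d1, lay between 217 and 334. Within the sgk kinases, sgk1 took 34.2% and sgk2b 49.4%, with a mean count of 1242 for sgk2b, so that sgk1 did not have the highest read support of its family. Of the phosphoenolpyruvate carboxykinase genes, pck2, whose product is mitochondrial in mammals, had a mean count of 39.9 and pck1 24.8% of the reads of both. How reads shared between similar copies were counted is not given in the sources used here. These related genes were chosen after the values of the 8 genes were seen.

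**Figure D2:**
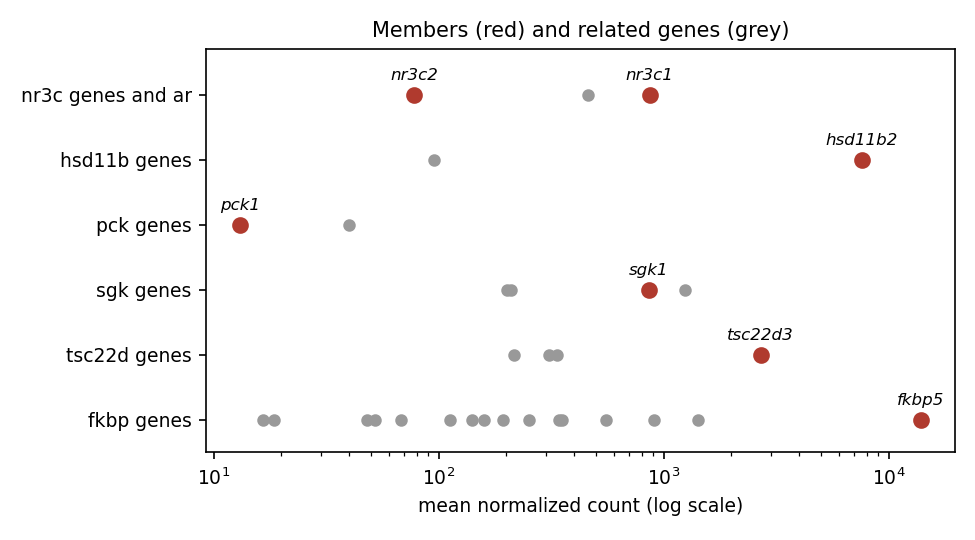
Authors' mean normalized count on a log axis for the members, in red, and for genes related to them by name, with ar beside the nr3c genes, in grey, 1 point per listed gene. There, ar at 462 lies between nr3c2 at 77.9 and nr3c1 at 867. In the fkbp, tsc22d and hsd11b rows the member lies to the right of every related gene, whereas sgk1 at 858 lies to the left of sgk2b at 1242 and pck1 to the left of pck2.

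The receptor works with chaperones, which hold it ready for its ligand, and with coregulators, which act with it on transcription. All 8 receptor chaperone genes of the list were matched, hspa8 under 2 identifiers, with a median mean count of 705. The highest was hsp90ab1, a cytosolic HSP90 gene, with 20866. The 2 entries of hspa8 had 20286 and 34.3, the latter being the lowest value of the list. All 9 coregulator genes were matched, with a median of 602, from 128 for the coactivator ncoa1 to 2767 for the corepressor ncor1. Of 5 other steroid receptors 4 were matched, from 11.5 for the oestrogen receptor gene esr2a to 462 for ar.

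The matched genes of the list for steroid synthesis and inactivation, which leaves out hsd11b2, had read support near or below the median of the table. Of the 9 genes of that list, 3 were matched. The lowest was cyp17a1, a steroid hydroxylase and lyase, with a mean count of 9.11. Next were hsd20b2, a steroid reductase of fish, with 72.9, and hsd11b1la with 95.5. The other six were not matched by name, and nothing is concluded from that. Of 22 other genes listed as glucocorticoid-induced, with earlier results of these data known, 19 were matched, with a median mean count of 559. Whether each of them responds to glucocorticoids in this tissue was not tested. The highest of this list was pdk2a, a pyruvate dehydrogenase kinase gene, with 7825, and the lowest was the clock gene per1a, with 19.7. The early stress targets klf9, a Krüppel-like factor, and dusp1, a MAP kinase phosphatase, had 509 and 1062. The median of the 8 members was 899. Many of these genes are also regulated by other signals, so their read support does not measure receptor activity.

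**Figure D3:**
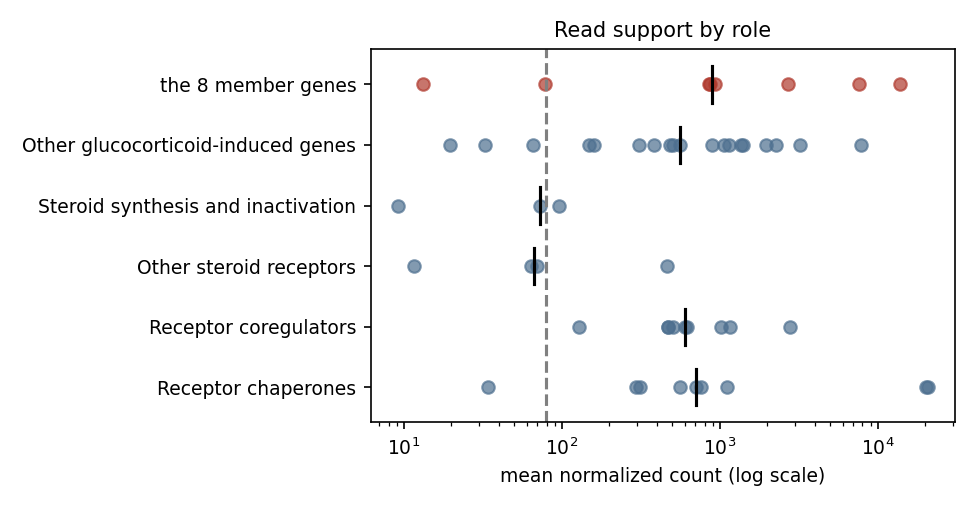
Authors' mean normalized count on a log axis for the 8 members, in red, and for the matched genes of each list, in blue, 1 point per listed gene; black bars are medians over the genes of a list and the dashed line is the median of all listed genes, 79.6. The lists of chaperones, coregulators and genes listed as glucocorticoid-induced have medians between 559 and 705. Those of other steroid receptors and of steroid synthesis and inactivation have 66.9 and 72.9. The latter median rests on 3 matched genes of 9 and leaves out hsd11b2, which is drawn among the members.

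The labelled tissue was checked against marker genes. The 6 cardiomyocyte markers had mean counts between 25667 for nppa, a natriuretic peptide gene, and 163295 for myl7, a myosin light chain gene. Of the others, vmhc had 37309, actc1a 55798, tnnt2a 57751 and cmlc1 81943. The paper describes nppa as usually high in the atrium and as a gene that responds to injury. The count of nppa therefore does not mark the ventricle alone. Whether the other cardiomyocyte markers do was not tested. The atrial myosin gene myh6 had a mean count of 3281, with 97.6% of genes below it, although the atrium was removed before extraction, so that the RNA was not free of this marker. Its part in the values of the 8 genes was not tested. Markers of other cells of the ventricle were found in the same RNA. Of the endothelial markers, cdh5 had 3550, kdrl 1955 and the 2 entries of pecam1 242 and 222. Of the fibroblast and epicardial markers, col1a1a had 12777, postnb 4010, tbx18 250.2 and tcf21 212. Leukocyte markers were also found, with 417 for ptprc and 235 for mpeg1.1. The neutrophil gene mpx had only 16.3, below the lower quartile of 17.3, with 24.1% of genes below it. The globin gene hbaa1 had 25133, and hbba1 was not matched by name. The liver marker fabp10a and the interrenal gene cyp17a1 had 5.09 and 9.11, and the kidney marker slc12a3 was not matched by name. The 8 genes could be transcribed in any of these cells, and in bulk RNA more cells of a type cannot be told apart from more RNA per cell.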

How the data were processed

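The authors sequenced RNA from pooled ventricles (Illumina) and used GRCz10 as reference genome. TopHat2 2.1.0, HTSeq 0.6.0 and DESeq2 are named, without their roles, in the submitters' processing notes. The signal values used are those the authors deposited, 1 mean per gene of counts divided by size factors over unstated samples. The table's other 7 numeric columns are the authors' own comparisons (log2 fold change with its error, test statistic, p-values and fold changes at each time point) and were not used. Depth per sample is unknown.

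Genes were found by name, and of the 18987 identifiers 92.6% were matched in a table of current symbols. The share of genes with a lower mean count was computed. As a check of the code only, the ranking step returned the known ranks of shuffled whole numbers. An exact Clopper-Pearson 95% interval was also computed for each share. Because the share is a rank among all listed genes, that interval measures neither sampling error nor spread between replicates, and it is not used. Counting error was taken as the inverse square root of the mean count. The planned tests of exercise, levels per kb, promoter motifs and protein identities were not run, since the files used here hold no counts per sample, transcript lengths or sequences.

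The members, the lists and the related genes were chosen with earlier results of these data known. The genes named were all members and, of each pathway list, those with the highest and lowest mean count, which replaced the planned order by count per kb, and every marker gene. Also named, after their values were seen, were klf9, dusp1, hsd20b2 and the related genes. The gene hsd11b1la was the highest of its list, but its pairing with hsd11b2 was added after the values were seen. Python 3.11.15, numpy 2.4.6, pandas 2.3.3 and scipy 1.17.1 were used.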

Additional observations from a re-analysis of the deposited data

How the results depend on the processing

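The share of genes with a lower mean count was recomputed over the 15560 genes with a mean count of at least 10, which by construction lowers it. It became 98.8% for hsd11b2, 96.5% for tsc22d3, 90.4% for ddit4, 89.7% for nr3c1 and 89.6% for sgk1. For fkbp5 it was 99.5%, for nr3c2 38.5% and for pck1 4.02%. Over genes with a current symbol it became 91.6% for ddit4, 91.0% for nr3c1, 90.9% for sgk1, 47.1% for nr3c2 and 19.3% for pck1. For fkbp5, hsd11b2 and tsc22d3 it was 99.5%, 99.0% and 96.9%. No paired analysis was possible because the table has no values per sample. For the same reason no replicate could be left out, and the alternatives planned for the tests of exercise, for levels per kb, for motifs and for protein identities were not run. Depth limits pck1 most, with a mean count of 13.1.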
